A study of Mus musculus with 18 samples.

Results

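The heat shock proteins and chaperones are the protein-folding machinery of the cell, and 71 of their genes were found among the 10897 genes measured in mouse colorectal tissue. They were taken by name, as the protein-coding Hsp genes of the HSP70, HSP90, HSP110, HSP60, HSP10 and small heat shock protein families, the Dnaj (J-domain) genes, the numbered Bag genes, Cct2 to Cct8 with Tcp1, and Hsf1. Of the 71, 10 are classically heat-inducible (Hspa1a, Hspa1b, Hspb1, Hspb8, Hsp90aa1, Hsph1, Dnaja1, Dnajb1, Dnajb4 and Bag3), and the other 61 are described as constitutive. Hspb1, Hsp90aa1 and Hspa1b, which mark the family, were measured in all 18 libraries. The name rule also matched 4 genes that the table does not annotate as protein-coding, among them Cct6a, and they were left out. Every gene of the table had at least 1 FPKM in at least 15 of the 18 libraries, so family members below that level are not analysed here.

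RNA was sequenced from colon tissue in 6 libraries of each of 3 groups, all from male C57BL/6J mice aged 10 weeks. By the sample characteristics, GF-AOMS were germ-free mice with colorectal cancer induced by AOM (azoxymethane, a colon carcinogen) that were also exposed to cigarette smoke. GF-AOM were germ-free mice with AOM-induced cancer, and Control were wild-type SPF (specific pathogen-free) mice that had AOM-induced cancer as well. The treatment protocol instead calls the groups AOM with smoke, AOM alone and a normal control, and the housing described is an SPF facility for all mice. What separates Control from the other groups is therefore not settled by the labels, while GF-AOMS and GF-AOM differ by smoke under both readings. The labels give 1 batch and do not say that each library is 1 mouse, so the p-values reflect the spread among libraries, which may be technical. Doses, smoke exposure and any pooling are not stated.

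Libraries held 48953539 to 79233656 counts. Ribosomal protein genes took 6.49% to 23.9% of the counts in GF-AOMS, 7.02% to 17.5% in GF-AOM and 4.74% to 14.0% in Control. Hoxa13, a gene of the distal colon, lay between 0 and 3.05 CPM (counts scaled to library size) in Control replicates 3 to 6 and between 24.7 and 53.5 CPM in the other 14 libraries. Scaling factors were under 0.9 in 5 libraries, GF-AOMS replicates 1 and 2, GF-AOM replicates 3 and 6, and Control replicate 2. Epithelial markers summed to 6701 to 9462 CPM in GF-AOMS, 5741 to 8327 CPM in GF-AOM and 8184 to 13020 CPM in Control. In bulk tissue, fewer cells of a type and less RNA per cell cannot be told apart.

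Chaperones bind unfolded proteins and keep them from clumping. HSP70 proteins work with J-domain partners, which stimulate their ATPase, and with exchange factors such as the BAG and HSP110 proteins, while HSP90 proteins mature kinases and receptors, small heat shock proteins hold unfolded clients, and the TRiC ring folds actin and tubulin. When proteins are damaged, the transcription factor HSF1 binds inverted repeats of GAA, called heat shock elements, in front of the inducible genes. Constitutive members serve newly made proteins in the cytosol, the endoplasmic reticulum and the mitochondria.

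That repeat was looked for in RefSeq promoter sequences (build GRCm38.p6), which run from 250 bases before to 50 bases after each gene's start. Both strands were searched for 3 GAA units in alternating direction, GAANNTTC followed by NNGAA or TTCNNGAA followed by NNTTC, where N is any base. The 2-unit forms GAANNTTC and TTCNNGAA were added after that result was seen, and every 3-unit match also holds 2-unit ones. The 250 bases before the start are shown on the gene's strand, 5′ to 3′, for Hspa1a (chr17:34972157-34972406, minus strand) and Hspa1b (chr17:34959239-34959488, minus strand), which are near-identical copies, for Hspb1 (chr5:135887669-135887918, plus strand), which differed most with smoke among the members, and for Hspe1 (chr1:55087898-55088147, plus strand), which holds a pair of overlapping 3-unit matches. For Hsph1 (chr5:149636288-149636300, minus strand) and Dnajb6 (chr5:29735852-29735864, plus strand) the 3-unit match alone is shown. Capitals mark the matches, which are 3-unit in Hspe1, Hsph1 and Dnajb6 and 2-unit in the others.
Hspa1a: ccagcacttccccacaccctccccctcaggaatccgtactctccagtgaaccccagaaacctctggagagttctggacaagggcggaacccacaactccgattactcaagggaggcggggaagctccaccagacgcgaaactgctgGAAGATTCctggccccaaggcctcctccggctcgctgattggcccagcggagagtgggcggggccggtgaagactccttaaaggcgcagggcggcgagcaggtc
Hspa1b: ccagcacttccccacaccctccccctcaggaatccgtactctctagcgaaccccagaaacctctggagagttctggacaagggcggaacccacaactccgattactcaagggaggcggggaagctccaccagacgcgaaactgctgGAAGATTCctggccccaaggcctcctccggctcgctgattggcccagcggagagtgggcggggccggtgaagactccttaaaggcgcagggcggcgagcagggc
Hspb1: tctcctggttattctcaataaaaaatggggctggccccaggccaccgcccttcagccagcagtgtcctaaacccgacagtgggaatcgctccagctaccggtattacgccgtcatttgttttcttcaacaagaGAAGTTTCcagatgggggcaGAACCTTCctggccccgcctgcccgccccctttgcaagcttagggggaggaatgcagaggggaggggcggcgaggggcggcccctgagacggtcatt
Hspe1: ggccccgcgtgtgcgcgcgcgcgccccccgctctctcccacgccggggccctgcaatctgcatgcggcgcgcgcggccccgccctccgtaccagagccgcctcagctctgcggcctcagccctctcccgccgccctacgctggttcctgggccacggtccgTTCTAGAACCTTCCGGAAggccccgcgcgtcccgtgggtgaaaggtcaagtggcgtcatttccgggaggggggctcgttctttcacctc
Hsph1: TTCTGGAAAGTTC
Dnajb6: GAATCTTCCGGAA

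The Hspa1a and Hspa1b stretches differ at 3 of 250 positions, and each holds 1 match. Hspb1 holds 2. The Hspe1 matches lie from 89 to 77 and from 84 to 72 bases before the start. Hspd1, its neighbour on the opposite strand, also holds 2 overlapping 3-unit matches, from 144 to 132 and from 139 to 127 bases before a listed start. The genes overlap and the pairs have the same spacing, so they may be a single stretch read from both strands. Both genes are counted below. A 2-unit match was found in 8 of the 9 heat-inducible members with a promoter in the table (88.9%). Among constitutive members it was found in 8 of 46 (17.4%), and among all 27025 genes with a promoter in 17%. A gene was counted if any of its listed starts held a match. The heat-inducible members were chosen as known HSF1 targets, so their high share is no independent result, and the near-identical Hspa1a and Hspa1b both count in it. A 3-unit match was found in 1 of the 9 heat-inducible members, Hsph1 (11.1%). It was found in 3 of the 46 constitutive members, Hspd1, Hspe1 and Dnajb6 (6.52%), and in 0.662% of all genes with a promoter. The Hsph1 match lies after the start, by 36 to 48 bases for 1 listed start and by 15 to 27 for the other. Dnajb1 held neither form in this window. A match describes letters, not binding.

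Levels per length (FPKM) placed many chaperones above the typical gene. The mean FPKM over the 18 libraries had a median of 11.5 over the 71 members and 7.32 over all genes, and 44 of the 71 members lay above the median of all genes. Bag1, a nucleotide exchange factor of HSP70, was highest at 469.6 FPKM (SD 185.2). It was followed by Hsp90ab1, the constitutive HSP90, at 319.5 FPKM (SD 62.6) and Hspa8, the constitutive HSP70, at 308.8 FPKM (SD 51.6), which lay within each other's spread. Below them came the endoplasmic reticulum chaperones Hsp90b1 at 97 FPKM (SD 25.6) and Hspa5 at 92.4 FPKM (SD 22.1), the TRiC subunit Cct2 at 82.8 FPKM (SD 11.3) and the mitochondrial chaperonin Hspd1 at 79.3 FPKM (SD 21.3), again each within the spread of its neighbour. This order depends on the gene lengths behind the deposited FPKM. Without length scaling, Hspa8 lay at 1044 to 1992 CPM over the 18 libraries, Hsp90ab1 at 857.1 to 1317 CPM and Bag1 at 308.0 to 1890 CPM.

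Several heat-inducible members were low. Hspa1b and Hspa1a, the stress-inducible HSP70 genes, lay at 7.06 FPKM (SD 3.28) and 4.26 FPKM (SD 1.78), and Hsph1, an exchange factor of the HSP110 family, at 4.38 FPKM (SD 1.22). Hsp90aa1, the inducible HSP90, reached 40.1 FPKM (SD 11.7) and Hspb1, a small heat shock protein, 32 FPKM (SD 9.80). The lowest member was Dnajc12, a J-domain protein, at 1.34 FPKM, and 22 of the 71 lay under 5 FPKM. Heat-inducible members also varied more between libraries of a group, with a median within-group SD of 0.34 on the log2 CPM scale, against 0.25 for the constitutive members and 0.31 for all genes.

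No member passed the test in any of the 3 comparisons (edgeR quasi-likelihood test, Benjamini-Hochberg adjustment over all 10897 genes). Between GF-AOMS and GF-AOM 0 of 71 members were called, with 0% of all genes called. Between GF-AOM and Control 0 members were called, with 0.00918% of all genes called, and between GF-AOMS and Control 0 members, with 0.734% of all genes called. An unadjusted p under 0.05 was reached by 0 members between GF-AOMS and GF-AOM (1.09% of all genes), by 9 members or 12.7% between GF-AOM and Control (15.7% of all genes), and by 8 members or 11.3% between GF-AOMS and Control (16.2% of all genes). DESeq2 called 0 members in the first comparison (0.0275% of all genes), 0 in the second (2.61%) and 1 in the third (3.44%), which was Hspb7. Separate ranges, with no library of 1 group within the range of the other, were found for 0 members in the first comparison (0.0642% of all genes), 1 in the second (0.762%) and 0 in the third (0.798%). With limma on log2(FPKM + 1), 0 members were called in each comparison, with 0%, 0% and 0.174% of all genes called. GF-AOMS and GF-AOM were set against the same 6 Control libraries, so the comparisons with Control share them.

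Smoke was examined by comparing GF-AOMS with GF-AOM. Of the heat-inducible members, 8 of 10 lay higher and 2 lower in GF-AOMS, with a median log2 difference of 0.15. The median was 0.01 for the 61 constitutive members, with 32 higher and 29 lower, and 0.01 over all genes. The adjusted p was 1 for every member.

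Hspb1 showed the largest difference among the members. Its lowest, median and highest values, in CPM after TMM scaling, were 25.1, 49 and 72.6 CPM in GF-AOMS, against 27.2, 34.3 and 44.7 CPM in GF-AOM. GF-AOMS replicates 1, 2, 4 and 6 lay above every GF-AOM library and replicate 3 lay below every one, so the groups overlap. The means were 47.6 ± 16.4 CPM in GF-AOMS, against 34.6 ± 6.18 CPM in GF-AOM (mean ± SD, n = 6 each), a log2 difference of 0.46 (SE 0.26, unadjusted p = 0.0972). The difference was 0.30 without GF-AOMS replicate 2, the highest library, and 0.19 without the 5 libraries whose scaling factor was under 0.9.

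Hspa1b and Hspa1a, whose proteins refold damaged clients, also had higher means in GF-AOMS, at lower levels. Hspa1b lay at 13.8, 19.2 and 39 CPM in GF-AOMS, against 10.7, 14.1 and 30.4 CPM in GF-AOM (lowest, median and highest), a log2 difference of 0.35 (SE 0.30, unadjusted p = 0.261). Hspa1a lay at 10.0, 13 and 21.7 CPM in GF-AOMS, against 7.94, 9.80 and 16.5 CPM in GF-AOM, a log2 difference of 0.28 (SE 0.27, unadjusted p = 0.303). The coding parts of the pair are 99.5% identical, with 10 differing positions, so the counting may split their reads either way, and their sum was also tested. The sum averaged 36.2 ± 14.1 CPM in GF-AOMS, against 28.9 ± 11.5 CPM in GF-AOM (mean ± SD, n = 6 each), a log2 difference of 0.33. That gave p = 0.286 in a two-sided exact permutation test and 0.34 after adjustment over the 3 comparisons, where the smallest possible p is 0.00216. The highest GF-AOMS library, replicate 6, stood at 60.7 CPM, and without it the difference was 0.16, with 0.11 for Hspa1b and 0.115 for Hspa1a alone.

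Hsp90aa1 lay at 138.3, 188.9 and 224.4 CPM in GF-AOMS, against 126.0, 144.2 and 199.5 CPM in GF-AOM (lowest, median and highest). The groups overlap over most of their range, and the log2 difference was 0.24 (SE 0.16, unadjusted p = 0.152). The other heat-inducible members differed by no more than 1 standard error. Their log2 differences were 0.17 (SE 0.21) for Hsph1, 0.12 (SE 0.12) for Dnajb1, a J-domain partner of the inducible HSP70, 0.10 (SE 0.15) for Dnaja1, another such partner, and 0.07 (SE 0.11) for Bag3, which links HSP70 to autophagy. Dnajb4, a J-domain protein, differed by -0.02 (SE 0.13) and Hspb8, a small heat shock protein that pairs with Bag3, by -0.08 (SE 0.27).

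**Figure D1:**
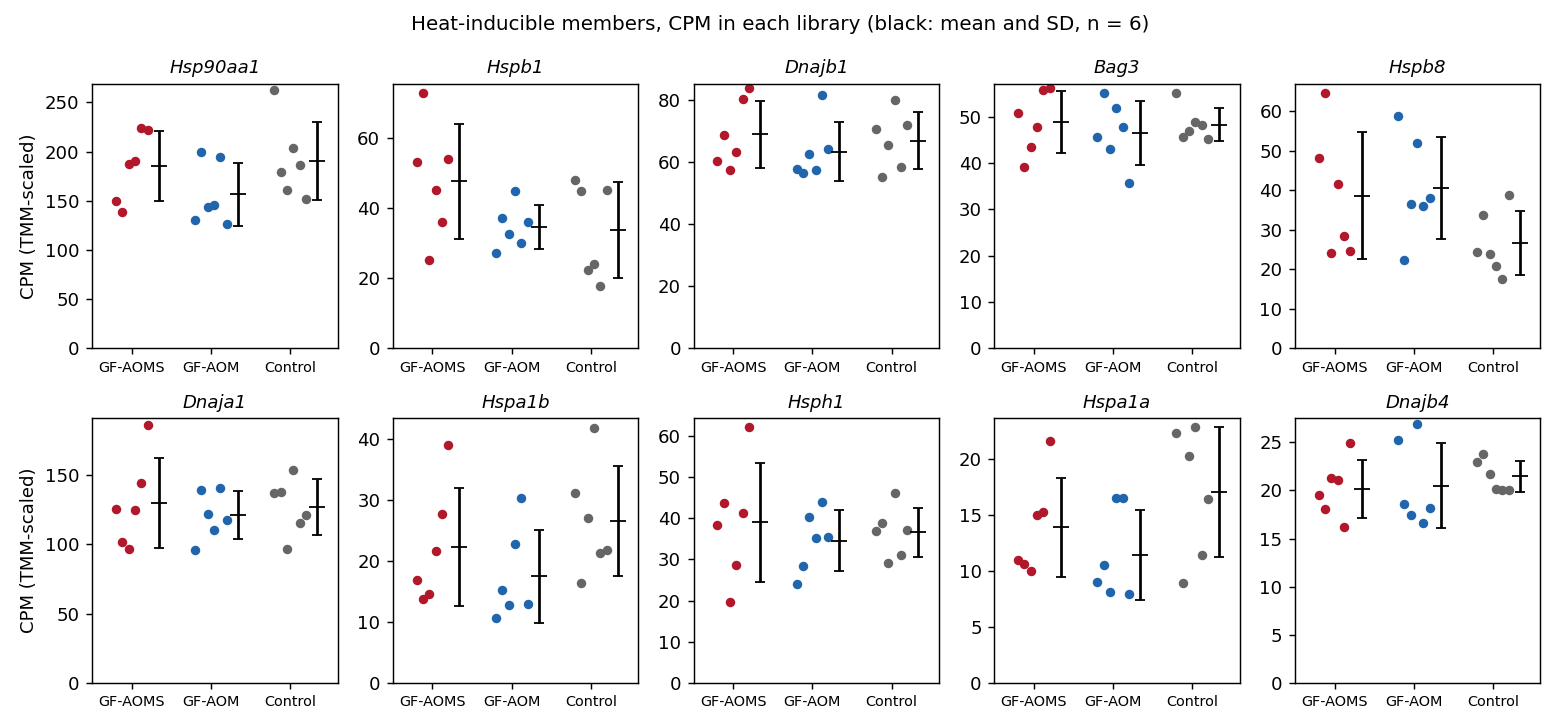
CPM after TMM scaling of the 10 heat-inducible members, 1 panel each on a linear axis from 0, with a point for each library and black bars for the mean and SD of 6 libraries. Hspb1 reaches 72.6 CPM in GF-AOMS and Hspa1b 41.9 CPM in Control, and the groups overlap in every panel.

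The heat-inducible genes ran high together in 1 library, GF-AOMS replicate 6, which was among the 3 highest of the 18 libraries for 9 of the 10 genes and among the 3 lowest for 0. The others were mixed or reached fewer genes. GF-AOMS replicate 5 was among the 3 highest for 4 genes and among the 3 lowest for 1, and Control replicate 4 for 4 and 2. GF-AOM replicates 1, 3 and 6 were each among the 3 lowest for 4 genes, and replicate 1 was also among the 3 highest for 2. The mean deviation of the 10 genes from their averages over the libraries, on the log2 CPM scale, ran from -0.32 in replicate 3 to 0.44 in replicate 6 of GF-AOMS, from -0.24 to 0.14 in GF-AOM and from -0.25 to 0.26 in Control. The constitutive members of GF-AOMS replicate 6 deviated by -0.02. Without that library the median log2 difference of the heat-inducible members between GF-AOMS and GF-AOM was 0.04, with 7 of 10 positive. Over the 18 omissions of a single library it ran from 0.04 to 0.23, where omission of a Control library could hardly move it.

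**Figure D2:**
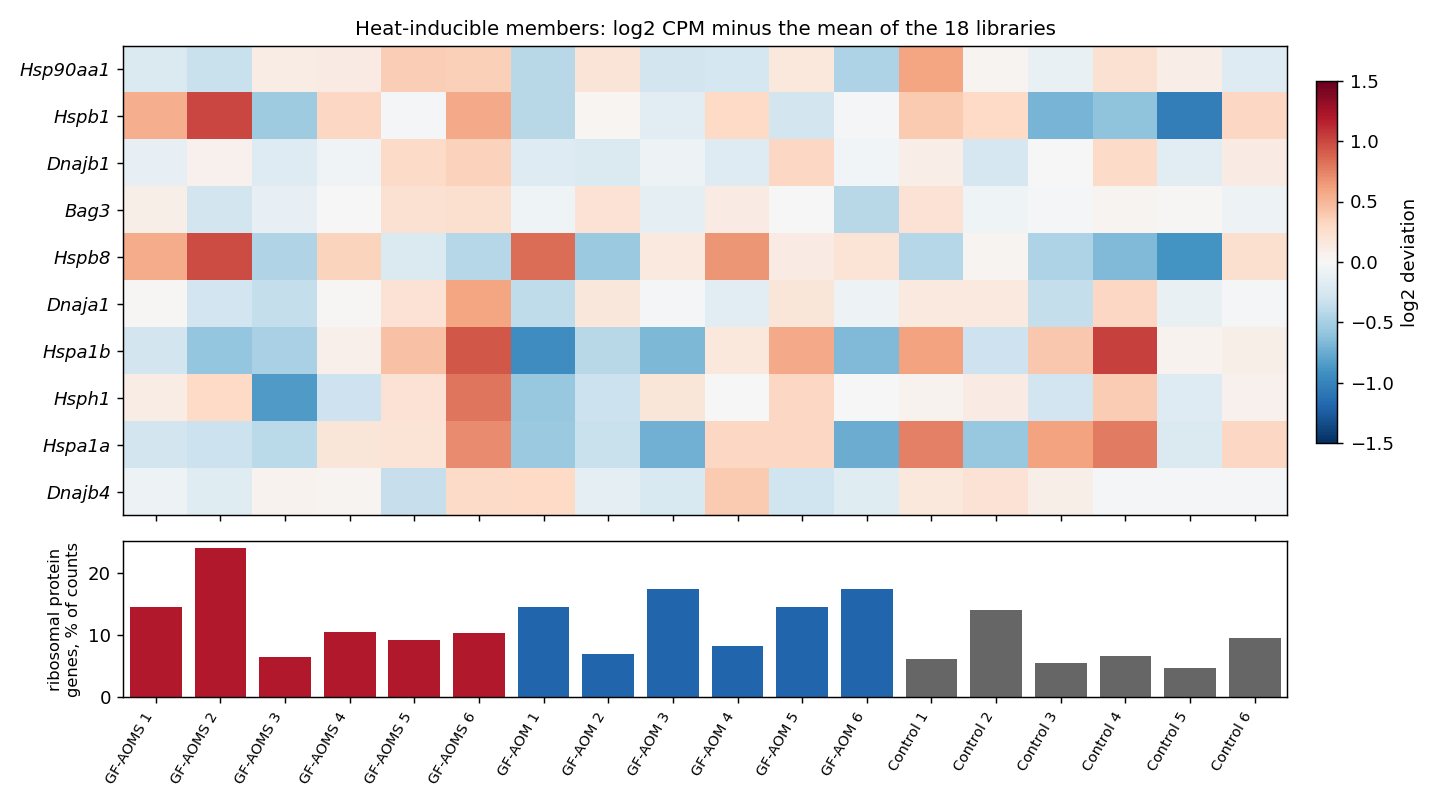
Top, log2 CPM of each heat-inducible member minus its mean over the 18 libraries, as colour, with libraries from GF-AOMS to Control in columns; bottom, the percentage of counts from ribosomal protein genes in each library. GF-AOMS replicate 6 is above average across nearly all rows, with a mean deviation of 0.44, and GF-AOMS replicate 2 has the highest ribosomal share at 23.9%.

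Among the constitutive members, 9 were grouped as chaperones of the endoplasmic reticulum (Hspa5, Hspa13, Hsp90b1, Dnajb9, Dnajb11, Dnajc1, Dnajc3, Dnajc10 and Dnajc25), and all 9 lay lower in GF-AOMS than in GF-AOM, by small amounts. The 9 were picked by hand, so the group is not every chaperone of that organelle. Dnajb12, a J-domain protein of the same organelle's membrane that was grouped with the other J-domain genes, differed by 0.003 (SE 0.17). Dnajc16, another such protein, ran higher, at 9.44 to 21.2 CPM in GF-AOMS, against 7.61 to 16.2 CPM in GF-AOM. Constitutive genes of that J-domain group split into 10 higher and 10 lower. The log2 differences of the 9 ran from -0.19 to -0.10 with a median of -0.14. All 9 stayed negative in each of the 18 omissions of a library, with medians from -0.20 to -0.10. Omission of a Control library could hardly move these differences, so only omissions within GF-AOMS or GF-AOM bear on this. Dnajc10, a J-domain protein that reduces disulfide bonds, lay at 157.8, 218.5 and 228.1 CPM in GF-AOMS, against 201.4, 237.2 and 250.9 CPM in GF-AOM (lowest, median and highest). All 6 GF-AOMS libraries lay below the GF-AOM mean while the ranges overlap, and the log2 difference was -0.17 (SE 0.15, unadjusted p = 0.258). Dnajc1 and Dnajc3, J-domain partners of the lumenal HSP70, differed by -0.19 (SE 0.14, unadjusted p = 0.179) and -0.16 (SE 0.12, unadjusted p = 0.221). Hsp90b1, the lumenal HSP90, averaged 409.4 ± 62.8 CPM in GF-AOMS, against 450.4 ± 105.1 CPM in GF-AOM (mean ± SD, n = 6 each), a log2 difference of -0.14 (SE 0.20), and Hspa5, the lumenal HSP70, differed by -0.10 (SE 0.22). Without GF-AOMS replicate 2 the differences were -0.125 for Dnajc1, -0.106 for Dnajc10 and -0.10 for Dnajc3, and Dnajc3 likewise stood at -0.10 without GF-AOM replicate 2.

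Of 17 other genes of endoplasmic reticulum folding and its stress response, 16 lay lower in GF-AOMS with a median of -0.12. With edgeR 0 passed, and 1 had an unadjusted p under 0.05, Atf4, a transcription factor of the response (-0.29, SE 0.13, unadjusted p = 0.0444), which is named because of that value. Markers of plasma cells, which fold antibodies in this compartment, lay lower too, 8 of 8 with a median of -0.38, and summed to 7712 to 24680 CPM in GF-AOMS and 13010 to 23990 CPM in GF-AOM. Xbp1 is in both lists. Their part in the chaperone values was not tested.

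All 7 TRiC subunits among the members lay higher in GF-AOMS than in GF-AOM, from 0.04 (Cct4) to 0.15 (Cct8) with a median of 0.08. Cct6a, another gene of the ring, was left out as not annotated protein-coding and was not examined. Single omissions of a library left 3 to 7 of the 7 positive, and without the 5 libraries of low scaling factor 4 were positive and 3 negative. Cct8 overlaps Usp16 on the opposite strand, and whether the counting used strand is not stated. The 7 constitutive Hsp genes outside the endoplasmic reticulum, the mitochondria and the small heat shock proteins also lay higher, with a median of 0.14. Among them Hspa8 averaged 1704 ± 259.0 CPM in GF-AOMS, against 1561 ± 153.2 CPM in GF-AOM (mean ± SD, n = 6 each), a log2 difference of 0.13 (SE 0.16). Hsp90ab1 averaged 1139 ± 93.5 CPM in GF-AOMS, against 1038 ± 154.2 CPM in GF-AOM (mean ± SD, n = 6 each), a log2 difference of 0.13 (SE 0.13).

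Proliferation markers lay higher in the same comparison, 8 of 8 with a median of 0.31, and summed to 405.2 to 721.7 CPM in GF-AOMS and 366.8 to 573.0 CPM in GF-AOM. Their part in the TRiC and Hsp values was not tested. The 20 other constitutive J-domain genes split evenly, 10 higher and 10 lower, with a median of -0.01. Dnaja4, a J-domain partner of HSP70, lay at 7.52, 8.55 and 10.3 CPM in GF-AOMS, against 6.96, 10.2 and 15.2 CPM in GF-AOM (lowest, median and highest). All 6 GF-AOMS libraries lay below the GF-AOM mean, within the GF-AOM range, and the log2 difference was -0.29 (SE 0.18, unadjusted p = 0.131). Without GF-AOM replicate 4, the highest library at 15.2 CPM, the difference was -0.16. Dnajb2, which carries clients to the proteasome, differed by -0.14 (SE 0.10, unadjusted p = 0.169) and Dnajc17, a nuclear J-domain protein, by -0.15 (SE 0.12, unadjusted p = 0.217). Bag6, which escorts membrane proteins before their insertion, differed by 0.22 (SE 0.17, unadjusted p = 0.217) and Hsf1 by 0.06 (SE 0.11). Omission of 1 library brought Dnajb2 to -0.09 (GF-AOMS replicate 3), Dnajc17 to -0.08 (GF-AOM replicate 3) and Bag6 to 0.12 (GF-AOMS replicate 3). The 9 mitochondrial members had a median of -0.01, with 3 higher and 6 lower. Of 16 measured cochaperones and HSF pathway genes outside the family, 11 lay higher with a median of 0.06, and 0 had an unadjusted p under 0.05.

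**Figure D3:**
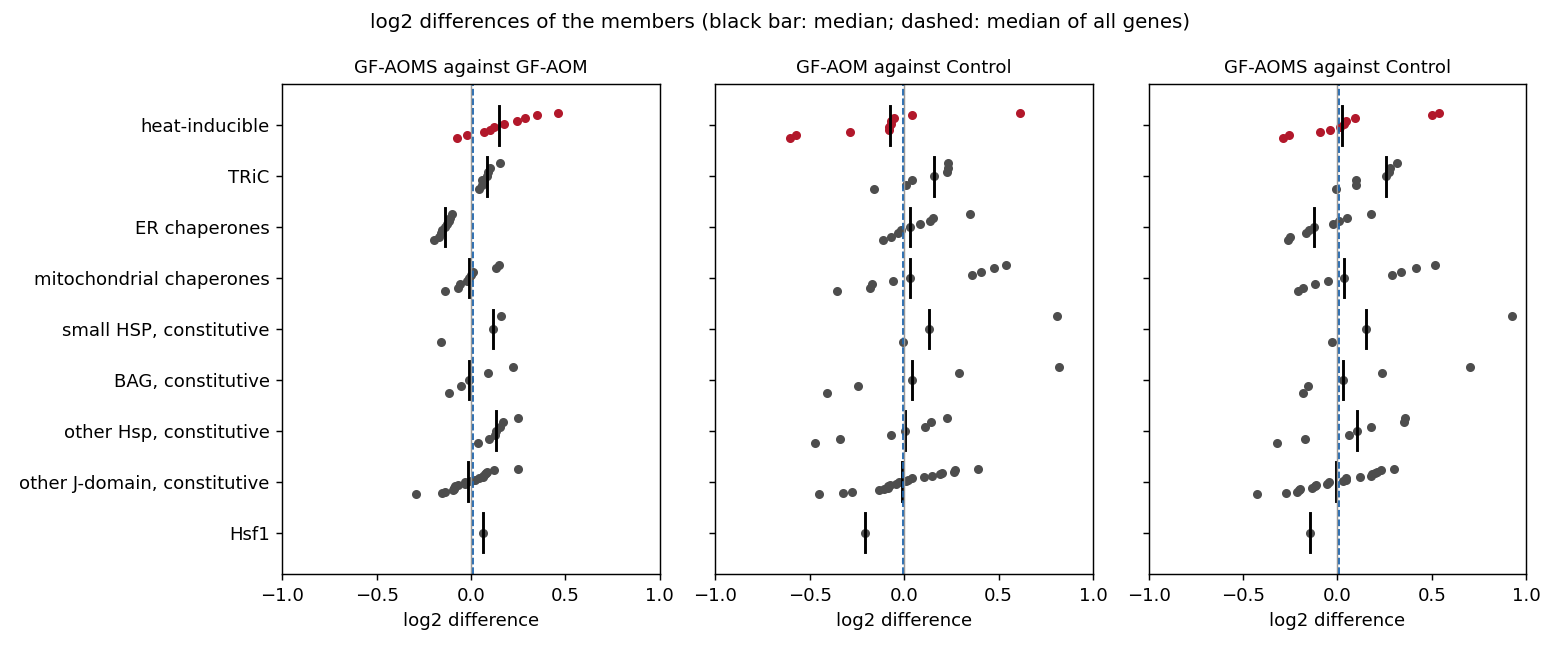
Log2 difference (edgeR) of each member in the 3 comparisons, by subgroup, with black bars at the subgroup medians and a dashed line at the median of all genes. In GF-AOMS against GF-AOM the 9 members grouped under the endoplasmic reticulum lie between -0.19 and -0.10 and the 7 TRiC subunits between 0.04 and 0.15, and Hspb7 and Bag1 reach 0.81 and 0.82 in GF-AOM against Control.

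GF-AOM was then compared with Control. Of the heat-inducible members 2 of 10 lay higher and 8 lower in GF-AOM, with a median of -0.07, and of the constitutive members 35 lay higher and 26 lower, with a median of 0.03. The median over all genes was -0.004. Hspa1a lay at 7.94, 9.80 and 16.5 CPM in GF-AOM, against 8.97, 18.4 and 22.9 CPM in Control (lowest, median and highest). All 6 GF-AOM libraries lay below the Control mean, the ranges overlap, and the log2 difference was -0.58 (SE 0.27, unadjusted p = 0.0465, adjusted p = 0.314). Hspa1b lay at 10.7, 14.1 and 30.4 CPM in GF-AOM, against 16.5, 24.5 and 41.9 CPM in Control, a log2 difference of -0.61 (SE 0.30, unadjusted p = 0.059, adjusted p = 0.331). With the ribosomal share of each library as a term the differences were -0.28 for Hspa1a and -0.30 for Hspa1b.

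The sum of Hspa1a and Hspa1b averaged 28.9 ± 11.5 CPM in GF-AOM, against 43.7 ± 14.4 CPM in Control (mean ± SD, n = 6 each). The log2 difference was -0.61, with p = 0.0736 in the two-sided exact permutation test and 0.221 after adjustment. GF-AOM replicates 4 and 5 stood at 39.4 and 46.9 CPM and the other GF-AOM libraries between 19.8 and 25.9 CPM. Control replicate 2 stood at 25.4 CPM and the other Control libraries between 32.7 and 64.7 CPM. Without GF-AOM replicate 5, the highest of its group, the difference was -0.77 (exact permutation p = 0.0303, unadjusted). Without Control replicate 2, the lowest of its group, the difference was -0.76 (exact permutation p = 0.0346, unadjusted). Each other omission of 1 library of these groups gave an exact permutation p from 0.0563 to 0.134 (unadjusted). The smallest difference was -0.49, without Control replicate 4 (exact permutation p = 0.132, unadjusted). Immediate early genes, which respond to acute stimuli including tissue handling, lay lower in GF-AOM for 6 of 7 measured, with a median of -0.42, and summed to 240.9 to 354.3 CPM in GF-AOM and 284.3 to 511.4 CPM in Control. Their part in the Hspa1a and Hspa1b values was not tested.

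Small heat shock proteins, counted by gene name, lay higher in GF-AOM for 4 of 5 members. This count did not hold with the ribosomal share of each library as a term. Hspb11 went from 0.13 to -0.64 and Hspb1 from 0.04 to -0.20, while Hspb7 stood at 0.68. Hspb7, known best from heart and skeletal muscle, lay at 12.9, 15.6 and 33.4 CPM in GF-AOM, against 6.44, 10.7 and 15.9 CPM in Control (lowest, median and highest). All 6 GF-AOM libraries lay above the Control mean, and the ranges overlap through Control replicate 6 alone. The log2 difference was 0.81 (SE 0.26, unadjusted p = 0.00662, adjusted p = 0.186), and 0.56 without GF-AOM replicate 4, the highest library. Hspb8 lay at 22.3, 37.3 and 58.8 CPM in GF-AOM, against 17.6, 24.1 and 38.9 CPM in Control, a log2 difference of 0.61 (SE 0.27, unadjusted p = 0.0374, adjusted p = 0.303), which was 0.20 with the ribosomal share as a term. Hspb1 averaged 34.6 ± 6.18 CPM in GF-AOM, against 33.6 ± 13.7 CPM in Control (mean ± SD, n = 6 each), a log2 difference of 0.04 (SE 0.26), which was -0.42 without Control replicates 3 to 6.

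Smooth muscle markers lay higher in GF-AOM as well, 8 of 8 with a median of 0.39, and summed to 3631 to 5918 CPM in GF-AOM and 1593 to 4799 CPM in Control. Their part in the Hspb7 and Hspb8 values was not tested. Hspb6, a small heat shock protein of smooth and striated muscle, averaged 23 ± 5.38 CPM in GF-AOM, against 23.1 ± 4.70 CPM in Control (mean ± SD, n = 6 each), a log2 difference of -0.004 (SE 0.28). Cryab, a related crystallin chaperone outside the name rule, differed by 0.23 (SE 0.36).

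Hspa4l, an HSP70 relative of the HSP110 type, was the 1 member of 71 whose groups did not overlap, as counted above. It lay at 19.6, 27.4 and 32.1 CPM in GF-AOM, against 33.5, 37.8 and 41.9 CPM in Control (lowest, median and highest), a log2 difference of -0.47 (SE 0.17, unadjusted p = 0.0118, adjusted p = 0.22). With the ribosomal share as a term the difference was -0.17. Hspd1, the mitochondrial chaperonin, averaged 209.6 ± 35.2 CPM in GF-AOM, against 268.2 ± 49.8 CPM in Control (mean ± SD, n = 6 each), a log2 difference of -0.36 (SE 0.14, unadjusted p = 0.0201, adjusted p = 0.255), which was -0.18 with that term. Its cofactor Hspe1 had the opposite sign, with means of 138.1 ± 54.5 CPM in GF-AOM, against 104.2 ± 38.9 CPM in Control (mean ± SD, n = 6 each) and a log2 difference of 0.41 (SE 0.34). The 2 genes overlap on opposite strands.

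Dnajc10, Bag6 and Dnajc18 also reached an unadjusted p under 0.05. Dnajc10 lay at 201.4, 237.2 and 250.9 CPM in GF-AOM, against 120.4, 176.3 and 245.9 CPM in Control (lowest, median and highest), a log2 difference of 0.35 (SE 0.15, unadjusted p = 0.0268, adjusted p = 0.275). All 6 GF-AOM libraries lay above the Control mean, and the difference was 0.025 without Control replicates 3 to 6. Plasma cell markers lay higher in GF-AOM too, 7 of 8 with a median of 0.88, and summed to 13010 to 23990 CPM in GF-AOM and 2763 to 14760 CPM in Control, and their part in the Dnajc10 value was not tested. Bag6 averaged 80.8 ± 16.2 CPM in GF-AOM, against 107.1 ± 16.9 CPM in Control (mean ± SD, n = 6 each), a log2 difference of -0.41 (SE 0.17, unadjusted p = 0.0317, adjusted p = 0.289), which was -0.07 with the ribosomal share as a term and -0.25 without Control replicates 3 to 6. Dnajc18, a J-domain protein, averaged 11.2 ± 1.23 CPM in GF-AOM, against 8.58 ± 1.58 CPM in Control (mean ± SD, n = 6 each), a log2 difference of 0.39 (SE 0.18, unadjusted p = 0.0454, adjusted p = 0.314), which was 0.20 with the ribosomal share as a term. With colon position as a term (the Hoxa13 level of each library) 0 members were called by edgeR and 0 reached an unadjusted p under 0.05, where 3.4% of all genes did. The same term left 1 member with such a p between GF-AOMS and GF-AOM (1.1% of all genes) and 2 between GF-AOMS and Control (4.09%).

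Bag1 had the widest spread within groups of the 71 members, an SD of 0.68 on the log2 CPM scale. It lay at 557.4, 783.5 and 1448 CPM in GF-AOM, against 308.0, 542.7 and 756.2 CPM in Control (lowest, median and highest), a log2 difference of 0.82 (SE 0.38, unadjusted p = 0.0437, adjusted p = 0.31). With the ribosomal share as a term the difference was -0.01. Its highest level of the study, 1890 CPM, was in GF-AOMS replicate 2, the library with the highest ribosomal share (23.9%). Of the 10 members with the widest spread, which were chosen by that measured spread and are not tested, 8 lay higher in GF-AOM with a median of 0.25, and 1 did with the ribosomal share as a term, with a median of -0.32. Of the other 61 members 29 lay higher with the term and 29 without it, but not the same 29. Signs changed in both directions, as for Dnajc19 (0.476 without the term, -0.128 with it) and Dnajc13 (-0.324 and 0.209).

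**Figure D4:**
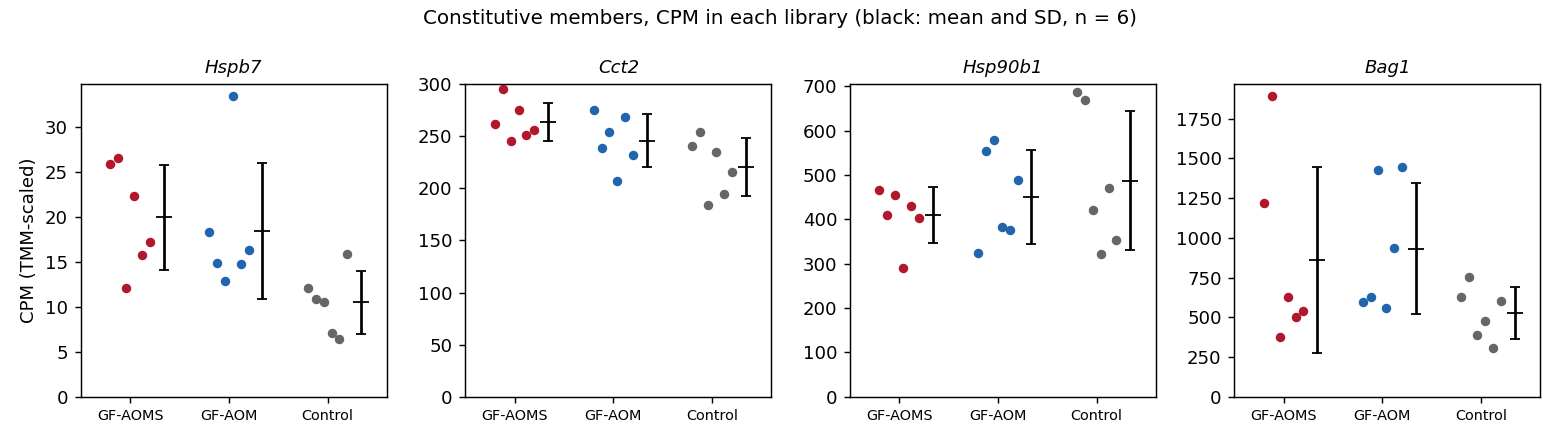
CPM after TMM scaling of the constitutive members Hspb7, Cct2, Hsp90b1 and Bag1, 1 panel each on a linear axis from 0, with a point for each library and black bars for the mean and SD of 6 libraries. Hspb7 reaches 33.4 CPM in GF-AOM and stays at or under 15.9 CPM in Control, and Bag1 reaches 1890 CPM in 1 GF-AOMS library.

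GF-AOMS was last compared with Control. Of the heat-inducible members 6 of 10 lay higher and 4 lower, with a median of 0.03, and of the constitutive members 34 lay higher and 27 lower, with a median of 0.03, against 0.01 over all genes. The direction of the heat-inducible median did not hold: it was -0.02 with colon position as a term (4 of 10 higher), -0.06 without Control replicates 3 to 6 (4 of 10), -0.05 with limma on log2(FPKM + 1) (2 of 10) and -0.09 without GF-AOMS replicate 6 (2 of 10). The median of the constitutive members was negative under some of the alternatives as well. Hspb7 had the smallest p of the members. It lay at 12.1, 19.8 and 26.5 CPM in GF-AOMS, against 6.44, 10.7 and 15.9 CPM in Control (lowest, median and highest). All 6 GF-AOMS libraries lay above the Control mean, and replicates 3 and 5 lay within the Control range. The log2 difference was 0.93 (SE 0.27, unadjusted p = 0.00258, adjusted p = 0.11) with edgeR, and 0.94 with an adjusted p of 0.0253 with DESeq2. Over all alternatives its adjusted p ran from 0.0253 to 0.999, and the difference was 0.62 with colon position as a term. Smooth muscle markers lay higher in GF-AOMS, 8 of 8 with a median of 0.66, and summed to 2192 to 12520 CPM in GF-AOMS and 1593 to 4799 CPM in Control. Their part in the Hspb7 value was not tested.

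TRiC subunits lay higher in GF-AOMS for 6 of 7, with a median of 0.26, and for 6 or 7 in each omission of a single library. Omission of a GF-AOM library could move these differences only slightly. With the ribosomal share as a term the TRiC median was 0.09, with 6 of 7 higher. Cct2 lay at 245.7, 258.8 and 294.9 CPM in GF-AOMS, against 183.6, 225.5 and 254.4 CPM in Control (lowest, median and highest). All 6 GF-AOMS libraries lay above the Control mean, with an overlap through Control replicate 2, and the log2 difference was 0.26 (SE 0.10, unadjusted p = 0.0198, adjusted p = 0.235). Cct5 averaged 275.6 ± 54 CPM in GF-AOMS, against 221.4 ± 31.1 CPM in Control (mean ± SD, n = 6 each), a log2 difference of 0.32 (SE 0.14, unadjusted p = 0.0313, adjusted p = 0.273), which was 0.21 without GF-AOMS replicate 2, its highest library. Tcp1 averaged 269.8 ± 37 CPM in GF-AOMS, against 222.0 ± 29.8 CPM in Control (mean ± SD, n = 6 each), a log2 difference of 0.28 (SE 0.13, unadjusted p = 0.0413, adjusted p = 0.293), and Cct8 differed by -0.008 (SE 0.12). Without Control replicates 3 to 6 the differences were 0.095 for Cct2, 0.155 for Cct5 and 0.117 for Tcp1. Prefoldin, which hands actin and tubulin to TRiC, had all 6 measured subunits higher in GF-AOMS, with a median of 0.195 and 0 with an unadjusted p under 0.05. The summed prefoldin level was lowest in Control replicate 5 (292.5 CPM) and highest in GF-AOMS replicate 2 (1593 CPM). These libraries also had the lowest (4.74%) and highest (23.9%) ribosomal share, whose part in the prefoldin values was not tested.

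Hspa8 lay at 1264, 1708 and 1992 CPM in GF-AOMS, against 1044, 1318 and 1681 CPM in Control (lowest, median and highest), with 5 of 6 GF-AOMS libraries above the Control mean, and a log2 difference of 0.35 (SE 0.16, unadjusted p = 0.0367, adjusted p = 0.284). Hspb1 lay at 25.1, 49 and 72.6 CPM in GF-AOMS, against 17.7, 34.3 and 47.8 CPM in Control, a log2 difference of 0.50 (SE 0.26, unadjusted p = 0.0734, adjusted p = 0.348), which was 0.04 without Control replicates 3 to 6. The sum of Hspa1a and Hspa1b averaged 36.2 ± 14.1 CPM in GF-AOMS, against 43.7 ± 14.4 CPM in Control (mean ± SD, n = 6 each), a log2 difference of -0.285 (exact permutation p = 0.34, adjusted p = 0.34). Dnaja4 lay lower, at 7.52, 8.55 and 10.3 CPM in GF-AOMS, against 9.17, 10.8 and 18.1 CPM in Control, a log2 difference of -0.43 (SE 0.18, unadjusted p = 0.0318, adjusted p = 0.274). The difference was -0.26 without Control replicate 6, which stood at 18.13 CPM with the other Control libraries at 9.166 to 11.77 CPM, and -0.12 without Control replicates 3 to 6. It overlaps Wdr61 on the opposite strand. Dnajb2 differed by -0.21 (SE 0.10, unadjusted p = 0.0411, adjusted p = 0.292), and Dnajc22, a membrane J-domain protein, by 0.23 (SE 0.11, unadjusted p = 0.0473, adjusted p = 0.305). Dnajc1 differed by -0.26 (SE 0.14, unadjusted p = 0.0741), Hspa4l by -0.32 (SE 0.17, unadjusted p = 0.0752), which was -0.19 without GF-AOMS replicate 2, and Dnajb12 by -0.27 (SE 0.17, unadjusted p = 0.127). Of the 9 members grouped under the endoplasmic reticulum 3 lay higher and 6 lower, with a median of -0.12. Without Control replicates 3 to 6 all 9 lay lower, with a median of -0.32.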

How the data were processed

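The deposited table gives, per the file headers, read counts and FPKM (fragments scaled to gene length and library size) for each gene and library. The submitters' processing notes name featureCounts, DESeq2 and build GRCm39, and no aligner, version or strand setting is given in the sources used here. Per the labels' protocols, RNA integrity numbers were at least 7, ribosomal RNA was removed and libraries were strand-specific. Positions in the table match build GRCm38 (63 of 71 members within 100 bases of GENCODE M21).

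One model without covariates was fitted to the authors' counts of the 18 libraries (edgeR 4.0.16, R 4.3.3; TMM scaling, quasi-likelihood test; 15 residual degrees of freedom). A gene was called at an adjusted p under 0.05 over 10897 genes. Levels are CPM after TMM scaling or the deposited FPKM. DESeq2 1.42.0, limma 3.58.1, other scalings, pseudocounts and filters, added terms and omitted libraries were alternatives. The ribosomal share term is the log2 share of counts from 79 ribosomal protein genes. Named are the heat-inducible and TRiC members, Hsf1, the 3 highest by FPKM and the 5 of smallest p in each direction of each comparison, and any other member named was chosen after its values were seen. The members and lists were chosen with earlier results of these data known. The scripts were tested on simulated data.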

Additional observations from a re-analysis of the deposited data

Results flagged for a closer look

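Of 99 sets of 6 libraries examined (33 members in 3 groups), 7 held a highest library whose gap to the next, divided by the whole range, was above 0.625. The usual rate for that limit, about 1 in 20, covers either end and assumes independent, normally distributed values. These sets share libraries, so that rate cannot be set against the count of 7. Hspb7 stood at 33.43 CPM in GF-AOM replicate 4, with the other GF-AOM libraries at 12.91 to 18.33 CPM. Cct5 and Cct7 both stood apart in GF-AOMS replicate 2, Cct5 at 381.9 CPM with the others at 230.0 to 267.0 CPM, and Cct7 at 239.2 CPM with the others at 176.0 to 192.8 CPM. Dnajb1 stood at 81.86 CPM in GF-AOM replicate 5, with the others at 56.55 to 64.26 CPM. Dnajc17 stood at 9.378 CPM in GF-AOM replicate 3, with the others at 6.867 to 7.707 CPM. Bag3 stood at 55.2 CPM in Control replicate 1, with the others at 45.3 to 48.85 CPM. Dnaja4 stood at 18.13 CPM in Control replicate 6, with the others at 9.166 to 11.77 CPM.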

How the results depend on the processing

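Members called stayed at 0 under each alternative except DESeq2, which called 1 between GF-AOMS and Control. The median of the constitutive members, close to 0 throughout, changed sign in each comparison. Between GF-AOMS and GF-AOM it was -0.044 without the libraries of scaling factor under 0.9, -0.013 with the ribosomal share term and as low as -0.011 over omissions of 1 library. Between GF-AOM and Control it was -0.05 with limma on log2(FPKM + 1), -0.056 with limma on log2(FPKM + 0.1), -0.035 without Control replicates 3 to 6, -0.027 with the colon position term and -0.012 with the ribosomal share term. Between GF-AOMS and Control it was -0.028 with limma on log2(FPKM + 1), negative too on log2(FPKM + 0.1), -0.013 without the libraries of low scaling factor and -0.005 with the ribosomal share term. The log2 difference of the Hspa1a and Hspa1b sum between GF-AOM and Control ran from -0.769 to -0.486 over omissions of 1 library. The cause was not tested. Of 2949 values of 33 named members under alternatives, 148 had the other sign, and the largest main difference among these was 0.82 (Bag1). The 2949 include omissions of a library outside the groups compared, which could hardly change a sign except near 0.

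No pairing by replicate number was seen on average. The 18 pairs sharing a number correlated by -0.045 on average (from -0.62 to 0.52), and the 90 other pairs by 0.011 (from -0.63 to 0.75). With so wide a range, these averages cannot exclude a pairing of some libraries. With the replicate number as a block 0 members were called, and the medians between GF-AOMS and GF-AOM, GF-AOM and Control, and GF-AOMS and Control were 0.122, -0.08 and 0.018 for heat-inducible members and -0.004, 0.039 and 0.036 for constitutive members. Precision is limited by the spread between 6 libraries a group, a median within-group SD of 0.27 on the log2 scale over the members.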
